A study of Mus musculus with 4 samples.

Results

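The regions described here are the islands of H3K36me3 on mouse chromosome 6, that is, all islands that 2 deposited lists place on this chromosome. They number 4664 of 58326 islands in the wild-type library and 5432 of 69798 in the mutant library, 10096 of 128124 in all. The chromosome was chosen by its measured cover, the highest of the autosomes in both lists, so its cover is given as a description and no test rests on it. Chromatin immunoprecipitation and sequencing (ChIP-seq) was done once per genotype, with myocytes of strain FVB. One library came from wild-type cells and the other from enhancer deletion mutant cells that lack an H19/Igf2 enhancer active in muscle, a deletion on another chromosome. In both genotypes, myoblasts were isolated from skeletal muscle on postnatal day 4, kept for 5 to 10 passages and harvested 24 hours after growth factors were withdrawn. The series design names 1 cell line per genotype, and the labels do not say how many animals each line came from. The comparison set throughout is the 16 autosomes other than 6, 14 and 15, with 48146 wild-type and 58507 mutant islands. Chromosomes 14 and 15 were left out because their cover differed between the libraries over long stretches.

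Trimethylation of lysine 36 of histone H3 is placed by the enzyme SETD2, which travels with elongating RNA polymerase II, so the mark lies over the bodies of transcribed genes and is low at their promoters and in silent domains. A caller of broad regions therefore reports it as islands along gene bodies. Cover by islands is a measure of how much of a chromosome lies in such regions and above the caller's threshold. It is not an amount of histone mark per gene.

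Chromosome 6 carries several gene groups of known interest in muscle. The GRCm38 gene table lists 1126 protein-coding gene names on it, where the other 16 autosomes have 511 to 2030, with a median of 1051. Among its muscle genes are Dysf (dysferlin, a membrane repair protein of muscle fibres), Flnc (filamin C, which crosslinks actin at the sarcomere's Z-disc), Cav3 (the muscle caveolin), Lmod2 and Lmod3 (which nucleate actin filaments) and Tead4 (a transcription factor active in myogenic cells). Cav2, Cav1 and Met, the receptor of hepatocyte growth factor, follow each other in the table, as do the imprinted genes Sgce and Peg10. The chromosome also carries gene groups of other lineages: 51 Vmn1r pheromone receptor names, 33 Tas2r taste receptor names, 28 olfactory receptor names and 13 Klra receptors of natural killer cells. The table is of another build than mm9, the build of the islands, so no island was assigned to a gene. The labelled cell type could not be checked against muscle markers for the same reason. Cover per protein-coding gene name, which needs no position, was 24.0 kb in wild-type cells and 23.5 kb in mutant cells. On the 16 other autosomes it was 8.08 to 20.9 kb and 7.98 to 20.4 kb.

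Islands covered more of chromosome 6 than of any of the 16 other autosomes, in both libraries. They spanned 26.99 Mb, or 18.1% of the chromosome, in wild-type cells and 26.50 Mb, or 17.7%, in mutant cells. The other autosomes ranged from 9.53% to 15.3% in wild-type cells, with a median of 12.7%, and from 9.72% to 14.5% in mutant cells, with a median of 12.01%. The next of this set was chromosome 11 in both. Chromosome 6 thus had 1.43 times the median cover in wild-type cells and 1.48 times in mutant cells. The input libraries were not analysed here. The number of copies of chromosome 6 in these cultured cells was therefore not tested, and no correction for it was made here in the cover and score values.

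Both the number and the length of islands were higher. There were 31.2 islands per Mb in wild-type cells, against 19.1 to 27.3 on the other autosomes, and 36.3 in mutant cells, against 24.0 to 32.6. Mean island length was 5787 bp in wild-type cells (4821 to 5627 bp elsewhere) and 4878 bp in mutant cells (3841 to 4616 bp elsewhere). Relative to the median autosome, number was 1.31 times and mean length 1.09 times as high in wild-type cells, and 1.28 and 1.15 times in mutant cells. Number therefore carried the larger part of the higher cover in each library. The median length did not stand apart: it was 4000 bp in wild-type cells and 3000 bp in mutant cells, the same as the median of the other autosomes. The longer mean came from the upper end of the lengths, where the 90th percentile was 11600 bp in wild-type cells (8800 to 11400 bp elsewhere) and 10400 bp in mutant cells (7600 to 9800 bp elsewhere).

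**Figure D1:**
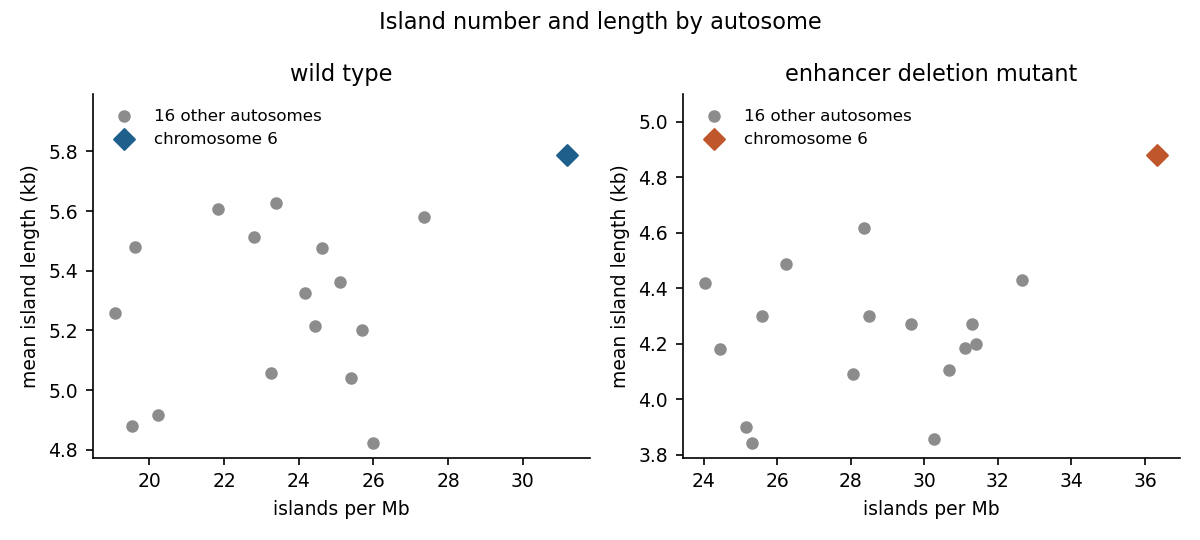
Islands per Mb (x axis) and mean island length in kb (y axis) for each autosome, with the wild-type library on the left and the mutant library on the right; axes do not start at 0. The diamond is chromosome 6, at 31.2 islands per Mb and 5787 bp in wild-type cells and 36.3 and 4878 bp in mutant cells, above the 16 other autosomes (grey points) in both measures.

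Wide islands were the class in which chromosome 6 differed most from the rest. Islands under 2 kb were 1.38 times as dense per Mb on chromosome 6 as on the pooled other autosomes in wild-type cells and 1.24 times in mutant cells. For islands of 2 to 5 kb the ratios were 1.30 and 1.23, and for 5 to 10 kb 1.31 and 1.33. They were higher for islands of 10 to 20 kb, at 1.57 and 1.70, and highest for those of 20 kb or more, at 2.48 and 3.06. Of the latter there were 153 in wild-type cells and 146 in mutant cells, against 26 to 85 and 19 to 77 on single other autosomes. Chromosome 15, outside the comparison set, had 63 in wild-type cells and 95 in mutant cells. They were 2.21% of its wild-type islands, against 3.28% on chromosome 6, and 2.79% of its mutant islands, against 2.69%. Chromosome 6 held 8.83% of the wild-type and 8.50% of the mutant islands of these 17 autosomes, but 15.1% and 17.9% of those of 20 kb or more. At 40 kb or more it held 14 of 58 in wild-type cells and 15 of 36 in mutant cells. The islands of 20 kb or more lay in all 15 tiles of 10 Mb along the chromosome in both libraries, with at most 23 in a tile, from 30000001 to 40000000. They made up 16.1% of the chromosome's cover in wild-type cells and 15.7% in mutant cells, against 9.11% and 6.99% on the pooled other autosomes.

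The longest island of the chromosome in wild-type cells spanned 84043801 to 84164400 (mm9), 120.6 kb. In mutant cells the same stretch held 8 islands of 4.4 to 23.2 kb, which together covered 85.6% of it. The wild-type island next to it, from 83984001 to 84043000 (59 kb), was likewise met by 4 mutant islands of 12.4 to 13.8 kb, with 90.2% of it covered. These neighbours scored 12.8 and 12.1 per window in wild-type cells, the highest of the 5 longest islands of that list, and the longest mutant pieces there scored 6.87 and 7.42. Scores of different libraries are not on one scale, so this pair of values shows a place in each list and no fold. The remaining long wild-type islands were at 91634401 to 91715600 (81.2 kb), 92079601 to 92132600 (53 kb) and 112658401 to 112709400 (51 kb), with 94.3%, 95.5% and 90.2% covered in mutant cells.

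In mutant cells the longest islands were at 71783001 to 71852600 (69.6 kb), 65802401 to 65862800 (60.4 kb), 54546601 to 54601000 (54.4 kb), 112699601 to 112746200 (46.6 kb) and 87078001 to 87123800 (45.8 kb). Each was met by 2 to 4 wild-type islands, and 92.3% to 98.3% of each was covered in wild-type cells. The same marked stretch could thus be 1 island in either library and several in the other. Some of the highest-scoring islands were shorter and lay at nearly the same place in both. The island at 97173601 to 97202400 in wild-type cells (28.8 kb, 17.6 per window) had its mutant counterpart at 97173801 to 97201600 (27.8 kb, 21.1 per window). The one at 47967601 to 47995600 in wild-type cells (28 kb, 16.5 per window) met 2 mutant islands, one from 47970801 to 47995600 (24.8 kb, 21.0 per window) and one of 2.8 kb before it. The 5 mutant islands with the highest total scores were this pair, the one at 86873201 to 86907400 (34.2 kb, 14.8 per window) and the longest islands at 71783001 and 65802401.

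Cover along the chromosome was uneven in both libraries, and its blocks and empty stretches lay at the same places. In 1 Mb bins it ran from 0% to 62.8% in wild-type cells and from 0% to 58.8% in mutant cells, with medians of 14.03% and 14.14%. By the mean of both libraries, the 5 most covered bins started at 30000001 (62.8% in wild-type cells and 58.1% in mutant cells), 146000001 (60.6% and 56.9%), 38000001 (60.9% and 56.1%), 72000001 (55.9% and 53.6%) and 71000001 (55.3% and 52.7%). In mutant cells alone the most covered bin started at 33000001, with 58.8%. In wild-type cells each of the 5 exceeded all 2094 bins of the other 16 autosomes, whose highest was 52.3%, on chromosome 10. In mutant cells the highest bin of these 16 reached 54.9%, also on chromosome 10, and the bins at 72000001 and 71000001 were below it. Chromosome 15, outside the comparison set, had a bin of 56.92% in mutant cells, above the chromosome 6 bin at 38000001. Of the 20 most covered bins of the 17 autosomes, by the mean of both libraries, 15 lay on chromosome 6, which holds 6.68% of all these bins. Of the upper 100 it held 26, and of the upper 200 it held 34, with 20 on chromosome 5, the next.

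**Figure D2:**
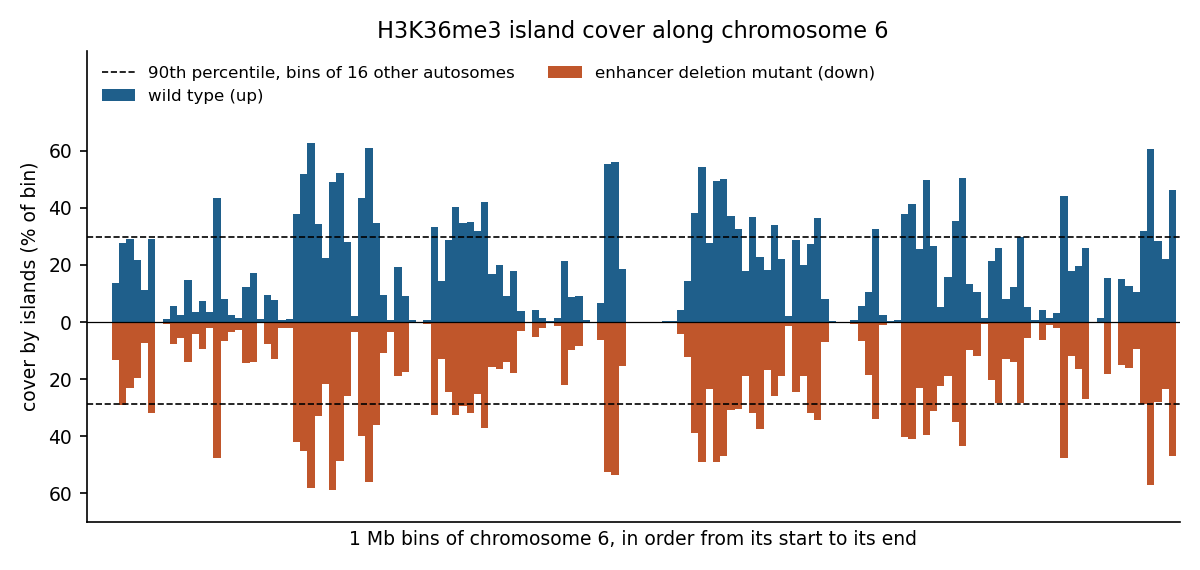
Cover by islands in percent of each 1 Mb bin (y axis) for the 150 bins of chromosome 6 in order (x axis), with wild-type bars pointing up and mutant bars pointing down from 0; the dashed lines are the 90th percentiles of bins of the other 16 autosomes, 29.8% in wild-type cells and 28.7% in mutant cells. Blocks above the lines and empty stretches lie at the same places in both libraries.

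A bin was called high when it reached the 90th percentile of the other autosomes' bins, 29.8% in wild-type cells and 28.7% in mutant cells. On chromosome 6, 37 of 150 bins (24.7%) were high in wild-type cells and 40 (26.7%) in mutant cells, against 10.0% and 10.1% of bins on the other autosomes. In both libraries at once 35 bins, 23.3%, were high, against 8.5% of the others' bins. Single other autosomes had 4 to 20 such bins. They fell into 19 runs: 9 single bins, 6 runs of 2 bins and 4 runs of 3 or 4 bins. No other autosome had more than 3 runs of 3 bins or more, and the longest run of high bins on any of them was also 4.

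The 4 longer runs differed in how their cover was built. The run from 28000001 to 32000000 was covered to 46.7% in wild-type cells and 44.6% in mutant cells, and held 16 and 17 islands of 20 kb or more. From 37000001 to 40000000 cover was 46.4% and 44.0%, with 9 wide islands in each library. From 86000001 to 90000000 it was 42.3% and 39.3%, with 17 and 14 wide islands. The run from 50000001 to 53000000 stood apart from these. Its cover was 36.6% and 31.3%, its islands averaged 5377 and 3817 bp, and islands of 20 kb or more numbered 3 in wild-type cells and 0 in mutant cells. It also had the lowest shared length of the 19 runs: 56.3% of the length covered in either library was covered in both, where the others had 62.7% to 76.9%.

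The remaining runs were spread from 17000001 to the end of the chromosome. Among runs of 2 bins, those from 71000001 to 73000000 and from 33000001 to 35000000 were the most covered, with 55.6% and 50.6% in wild-type cells and 53.1% and 53.8% in mutant cells. The run from 112000001 to 114000000 had the longest islands, 9016 bp on average in wild-type cells and 8647 bp in mutant cells, of which 8 and 11 reached 20 kb.

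Between the blocks lay stretches with almost no islands. In 28 of 150 bins, 18.7%, cover was under 1% in both libraries, against 16.8% of the bins of the other autosomes. This share lay within the range of single other autosomes, 6.67% to 23.7%. The longest empty run, from 74000001 to 81000000, held 2 islands in wild-type cells and 4 in mutant cells over its 7 bins, where the longest such run on any other of the 16 autosomes had 6. The next was from 102000001 to 106000000, with 5 islands in each library. Runs of 3 empty bins lay from 44000001 to 47000000 and at the start of the chromosome, where no island was called before 3000001 in either library. The first 3 bins are counted among the 28, and whether reads can be placed in them was not tested.

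The higher cover was thus not found in every bin, and it was not confined to the highest ones. Bins were ranked within chromosome 6 and within the pooled bins of the other autosomes. Cover at the 10th percentile was lower on chromosome 6 than in the pooled bins, 0.144% against 0.34% in wild-type cells and 0% against 0.206% in mutant cells. Single other autosomes had 0% to 1.08% and 0% to 0.596% there, so chromosome 6 lay within their range. At the 25th percentile, cover was 1.68% against 1.64% in wild-type cells and 2.09% against 1.61% in mutant cells. At the median it was 1.63 times that of the pooled other autosomes in wild-type cells and 1.57 times in mutant cells. In wild-type cells the median bin of chromosome 11 was higher, 14.46% against 14.03% on chromosome 6. In mutant cells chromosome 6, with 14.14%, was above all 16 others, which reached at most 13.15%. At the 75th, 90th and 95th percentiles the ratios were 1.46, 1.46 and 1.48 in wild-type cells and 1.499, 1.47 and 1.49 in mutant cells. From the 75th percentile up the ratio therefore changed little. The most covered 10% of bins held 29.1% of the chromosome's cover in wild-type cells and 28.5% in mutant cells, and on the other autosomes 24.0% to 33.3% and 24.2% to 32.2%. With those bins removed from every chromosome, mean cover of chromosome 6 was 14.3% and 14.2%, still above all 16 others and 1.42 and 1.502 times their median.

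**Figure D3:**
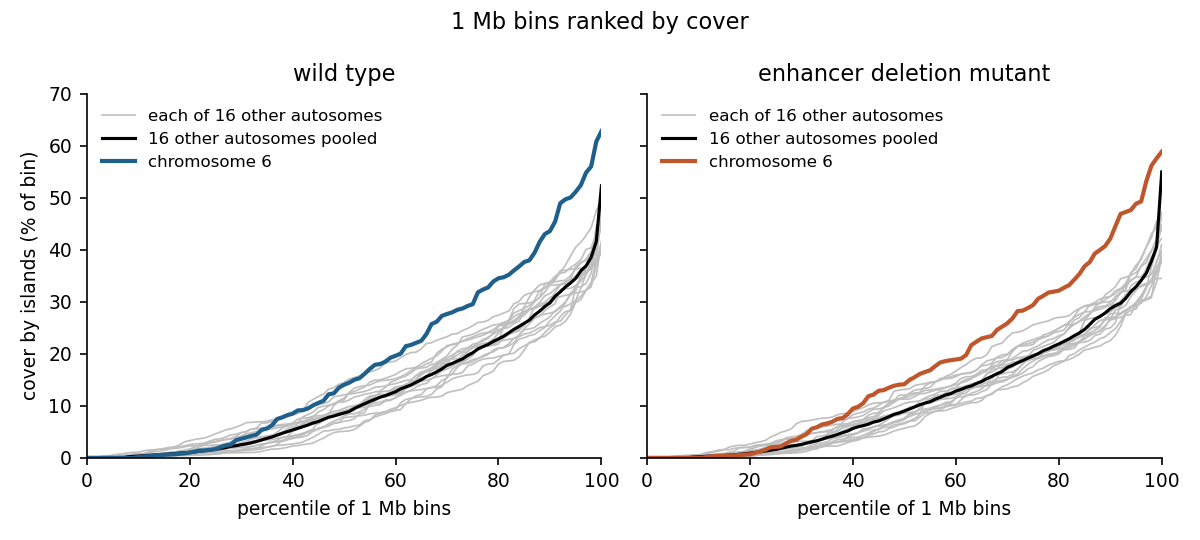
Cover by islands in percent of a 1 Mb bin (y axis) at each percentile of the ranked bins (x axis), in wild-type cells on the left and the mutant on the right; the coloured line is chromosome 6, grey lines are single other autosomes and the black line pools them. In the lowest 25% of bins all lines lie near the bottom of the axis, where their ratios are hard to read. From the 75th percentile up chromosome 6 is 1.46 to 1.499 times the pooled line at the percentiles given in the text.

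A fixed limit gives another view of the same bins. The high bins, 23.1% of the chromosome's length, held 55.9% of its cover in wild-type cells and 54.3% in mutant cells. Outside them cover was 10.3% and 10.5%, against 8.12% to 11.6% and 8.33% to 11.4% outside the high bins of single other autosomes. One limit for all chromosomes takes more bins from a chromosome with higher cover, so this does not show that the remaining bins are alike. By a limit of 1%, 80.0% of wild-type and 78.7% of mutant bins were occupied, within the range of the other autosomes (70.2% to 91.7% and 70.4% to 87.9%). Within occupied bins mean cover was 22.6% in both libraries, where the other autosomes reached at most 18.8% and 17.6%. Chromosome 6 therefore had an occupied share like that of other chromosomes, with more cover in the occupied bins. The median gap between neighbouring islands was correspondingly short, 4000 bp in wild-type cells (5200 to 6800 bp elsewhere) and 3200 bp in mutant cells (3600 to 4600 bp elsewhere).

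Islands of chromosome 6 also scored higher per window than those of every other autosome in the set. The island score grows with the reads in each 200 bp window. A window with 10 reads scores 7.56 in wild-type cells and 6.88 in mutant cells at the depths solved from the lists, 2.82 and 3.11 reads per window on average. Windows under the caller's limit inside an island add nothing, so an island's average can be lower. The median score per window of chromosome 6 islands was 4.06 in wild-type cells, against 3.49 to 3.75 on single other autosomes, and 4.42 in mutant cells, against 3.86 to 4.04. The difference was larger in the upper range. The 90th percentile was 8.003 in wild-type cells, against 5.93 to 6.62, and 8.67 in mutant cells, against 6.53 to 7.27. At the 10th percentile it was small: 2.34 against 2.18 to 2.33, and 2.47 against 2.36 to 2.48, where chromosome 5 was higher in mutant cells.

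Score per window varied with length and was higher in islands under 2 kb than in those of 2 to 5 kb, so islands were also compared within classes of length. In all 5 classes and both libraries the median score per window on chromosome 6 was above that of each of the 16 others. For islands of 2 to 5 kb it was 3.45 in wild-type cells, against 3.18 to 3.29, and 3.68 in mutant cells, against 3.27 to 3.43. For islands of 20 kb or more it was 7.33, against 4.78 to 5.83, and 7.98, against 4.89 to 6.13. The same held in sparsely marked bins. In bins covered to between 1% and 10%, islands of chromosome 6 had a median of 3.86 per window in wild-type cells, against 3.20 to 3.47, and 4.05 in mutant cells, against 3.39 to 3.89. In bins of 20% to 30% it was above all 16 in wild-type cells and above 15 of 16 in mutant cells. In bins of 30% to 40% the medians were 3.95, against 3.63 to 4.26, and 4.37, against 3.88 to 4.398, so 1 of the 16 autosomes was higher there in each library. In bins of 40% or more, chromosome 6 was above 13 of the 15 autosomes that had such bins in wild-type cells and above 9 of 9 in mutant cells.

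Along the chromosome the higher score per window was broad. In 14 of 15 tiles of 10 Mb, the median was above the median of the 209 tiles of the other autosomes. That value was 3.5875 in wild-type cells and 3.923 in mutant cells. The tile from 100000001 to 110000000 was only slightly above it, at 3.596 and 3.938. The 90th percentile was above the corresponding value, 6.24 and 6.71, in all 15 tiles of both libraries. The exception in the median was the tile from 90000001 to 100000000, with 3.399 and 3.804. That tile was well covered, 23.0% in wild-type cells and 22.6% in mutant cells. The tile from 60000001 to 70000000 was the reverse, with the lowest cover of the 15 (4.74% and 4.97%) and medians of 4.38 and 4.30. The highest medians, 5.12 and 5.34, were in the tile from 70000001 to 80000000, which holds the covered bins at 71000001 to 73000000 and most of the longest empty run. In these tiles of 10 Mb, cover and score per window therefore did not go together. By classes of 1 Mb bins, the median score per window of chromosome 6 was highest in bins of 40% or more. It was 4.45 there against 3.86 in bins of 1% to 10% in wild-type cells, and 5.13 against 4.05 in mutant cells. Cover was above the median of the other tiles in 11 of 15 tiles in each library.

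**Figure D4:**
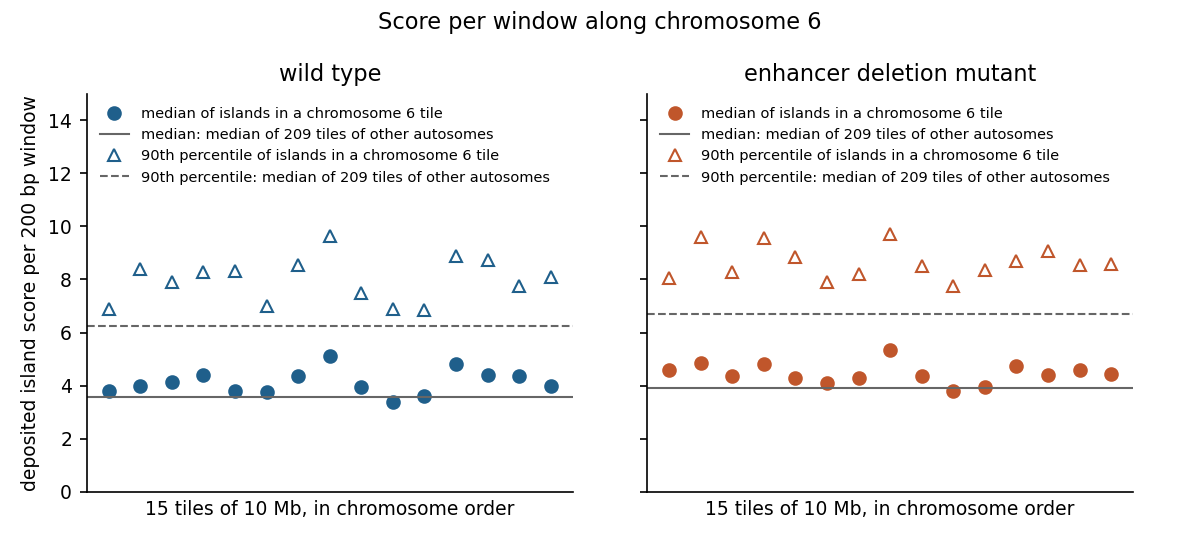
Deposited island score per 200 bp window (y axis) in 15 tiles of 10 Mb along chromosome 6 (x axis, in order), for the wild type on the left and the mutant on the right; filled points are medians over the islands of a tile, open triangles are 90th percentiles, and the solid and dashed lines are the medians of the same values over 209 tiles of the other autosomes. All 15 triangles lie above the dashed line in both libraries, and 14 of 15 points lie above the solid line.

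Between the genotypes, the share of covered length common to both libraries was higher on chromosome 6 than on any of the 16 other autosomes. Chromosome 6 also had the highest cover, and this share was not compared at matched cover. The libraries shared 20.9 Mb of the 32.6 Mb covered in either, a Jaccard index of 64.0%, against 55.15% to 61.01% elsewhere. In wild-type cells 3999 of 4664 islands, 85.7% (exact binomial 95% interval 84.7% to 86.7%), met at least 1 bp of a mutant island. In mutant cells 4203 of 5432, 77.4% (76.2% to 78.5%), met a wild-type island. These intervals cover counting error only. Where each island of a pair had to cover 50% of the other, the shares were 57.1% and 49.0%. This stricter rule was applied to chromosome 6 alone and was not compared with the other autosomes. By the limit of 1 bp, islands without a counterpart were 14.3% in wild-type cells, against 17.0% on the other autosomes. In mutant cells they were 22.6%, against 25.5%. The wild-type share with a counterpart was above those of all 16 others (77.8% to 85.1%), and the mutant share was above 14 of 16. Of the wild-type covered length, 77.3% was also covered in mutant cells, above all 16 others. Of the mutant covered length, 78.8% was also covered in wild-type cells, above 15 of 16.

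Long islands meet another island more easily, so the shares were also compared within classes of length. At 5 kb and above, the shares with a counterpart were similar on chromosome 6 and elsewhere: 92.1% (90.4% to 93.6%) against 92.2% for wild-type islands of 5 to 10 kb, and 95.3% (93.8% to 96.6%) against 95.8% in mutant cells. At 2 to 5 kb they were 79.8% (78.2% to 81.4%) against 76.7% in wild-type cells, and 77.0% (75.3% to 78.6%) against 73.6% in mutant cells. Those values fall within the range of single other autosomes, 67.5% to 79.9% and 69.4% to 78.8%. Under 2 kb the wild-type share was 82.3% (78.5% to 85.7%) against 76.8%, and above the highest single autosome, 81.7%; the mutant share was 53.6% (50.8% to 56.4%) against 53.2%. All 153 wild-type and all 146 mutant islands of 20 kb or more had a counterpart. On the other autosomes 99.9% and 99.4% of such islands had one, so this does not set chromosome 6 apart.

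The covered length was nearly equal in the 2 libraries, at 0.982 times the wild-type value in mutant cells, where the other autosomes had 0.875 to 1.03. The order of the libraries turned in 3 of 4 alternative settings, so no direction is read from it. The mutant list had 1.16 times as many islands (1.12 to 1.29 times elsewhere). Of the 15 tiles, 8 had less cover in mutant cells, and the ratios ran from 0.889, from 50000001 to 60000000, to 1.096, from 10000001 to 20000000. Shared length was lowest in the latter tile, 54.4%, and highest from 70000001 to 80000000, 75.5%.

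In 1 Mb bins the libraries were close to each other. The difference was under 5 percentage points in 133 of 150 bins and under 10 in 147. Spearman's correlation over the 150 bins was 0.98, a description of bins that share library and position, against 0.95 to 0.99 on the other autosomes. In 2 bins, 1.33%, the mutant was higher by 10 points or more, against 0.0955% on the other autosomes. In 1 bin, 0.667%, the wild type was higher by as much, against 0.525%. A limit in points is easier to pass where cover is high. Among bins with a mean cover of 20% or more, 2 of 58 on chromosome 6 (3.45%) differed by 10 points or more in either direction, against 1.93% elsewhere. These are too few bins to order the shares. The largest difference, in the bin at 117000001, lay at a mean cover of 13.98%, so that bin is not among the 58.

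**Figure D5:**
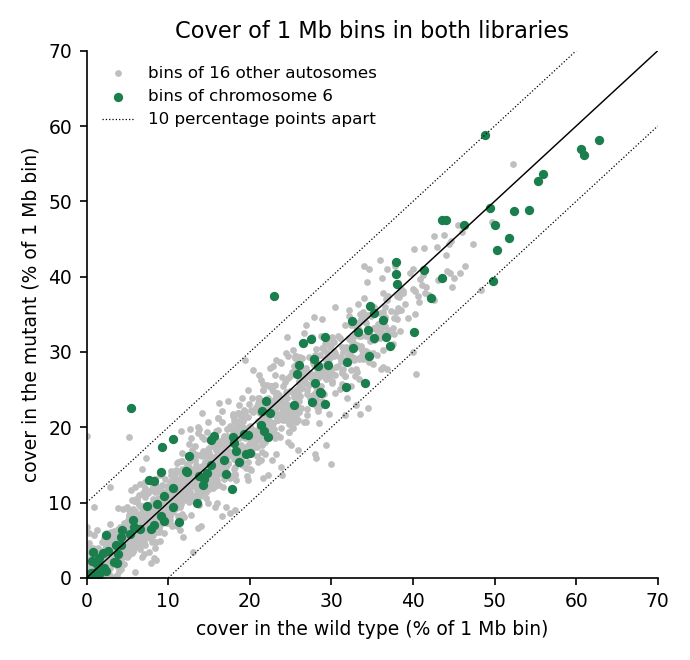
Cover of 1 Mb bins in wild-type cells (x axis) and the mutant (y axis), both in percent of the bin, with the 150 bins of chromosome 6 in green and those of the other 16 autosomes in grey; the solid line marks equal cover and the dotted lines a difference of 10 percentage points. Chromosome 6 reaches 62.8% in wild-type cells and 58.8% in mutant cells, and 3 of its bins lie outside the dotted lines.

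The bin with the largest difference started at 117000001, with cover of 5.42% in wild-type cells and 22.5% in mutant cells. It held 60 mutant islands, of which 52 had no counterpart, and 10 wild-type islands. Over all mutant islands, 22.6% had no counterpart on chromosome 6 and 25.5% on the other autosomes. The bin was picked for its difference between the libraries, so many unmatched mutant islands follow from that choice. The difference extended over its 100 kb steps from 117100001 to 117700000, where the mutant was covered to 19.4% to 33.4% and the wild type to at most 4.6%. The mutant islands of this bin had a median score of 3.47 per window, against 4.42 on the whole chromosome.

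The next bin started at 92000001, with 22.9% and 37.4%. Its difference lay at the end, where the steps from 92800001 to 92900000 and from 92900001 to 93000000 had 18.6% and 8.2% in wild-type cells and 67.6% and 56.2% in mutant cells. Further bins higher in mutant cells started at 33000001 (48.9% and 58.8%), 43000001 (9.18% and 17.4%) and 107000001 (10.5% and 18.5%). In the bin at 33000001 the mutant was higher in 7 adjacent steps of 100 kb, from 33200001 to 33900000. Of the 129 mutant islands in this bin, 28 had no counterpart. That was near the share over all mutant islands of chromosome 6, 22.6%, so it does not set the bin apart.

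In favour of the wild type the largest differences were in the bins that started at 115000001 (49.9% in wild-type cells and 39.4% in mutant cells), 94000001 (34.1% and 25.8%), 50000001 (40.2% and 32.7%), 120000001 (50.3% and 43.6%) and 29000001 (51.7% and 45.2%). The bin at 115000001 had nearly the same number of islands in both libraries, 67 and 65, and they were shorter in mutant cells, 6095 against 7466 bp on average. The other 4 bins likewise had shorter islands in mutant cells. Each of the 5 bins higher in mutant cells had more islands there, and each of the 5 higher in wild-type cells had longer islands there. Both features were common along the chromosome: of 133 bins with islands in both libraries, 92 had more islands in mutant cells and 112 had a longer mean in wild-type cells.

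Islands of 1 library alone were short and low in score. Those without a counterpart numbered 665 in wild-type cells and 1229 in mutant cells, and they made up 8.30% and 10.4% of the covered length. Their median length was 3200 bp in wild-type cells and 2000 bp in mutant cells, against 4200 and 3600 bp for islands with a counterpart, and their median score per window was 2.73 and 3.53, against 4.35 and 4.82. They occurred in every tile, 11 to 90 per tile in wild-type cells and 20 to 150 in mutant cells. Of the wild-type islands 92 were both without a counterpart and at least 5 kb long, 1.97% of all chromosome 6 islands in that list, against 2.05% elsewhere. Of the mutant islands 48 were, 0.884%, against 0.795%.

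Few of them were long: 1 wild-type island and 2 mutant ones reached 10 kb, of 617 and 589 islands of that length. This was common to the autosomes. At 10 to 20 kb, 99.8% of wild-type and 99.5% of mutant islands of chromosome 6 had a counterpart, against 99.3% and 99.4% elsewhere. The wild-type one lay at 71080801 to 71091800 (11 kb, 2.69 per window). It was followed by islands of 8.6 kb at 28884401 to 28893000, 50431001 to 50439600, 89568801 to 89577400 and 109655801 to 109664400. The longest mutant ones lay at 28549201 to 28562600 (13.4 kb, 3.11 per window), 131256001 to 131266800 (10.8 kb, 3.96 per window), 122526001 to 122535800 (9.8 kb), 33591001 to 33599600 (8.6 kb) and 125434401 to 125443000 (8.6 kb). The island at 33591001 lay within the bin whose cover was higher in mutant cells over 7 adjacent steps.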

How the data were processed

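H3K36me3 ChIP-seq was deposited as 1 list of islands per library, for 1 wild-type and 1 mutant library; the 2 input libraries were not analysed here. Bowtie 1.0.0, an aligner, SICER 1.1, a caller of broad regions, and the build mm9 are named in the submitters' processing notes. Windows of 200 bp and gaps of 600 bp are named with the deposited lists. Use of input and removal of duplicates are not given in the sources used here. Each island carries a score deposited by the authors, used within a list only. Coordinates are printed counted from 1, and a chromosome's length is the end of its last island in either list.

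Cover, bins of 1 Mb and tiles of 10 Mb were computed on arrays of windows (numpy 2.4.6, scipy 1.17.1 and pandas 2.3.3 in Python 3.11.15, with matplotlib 3.10.9 for figures) and checked on simulated islands. Total depth is unknown; reads per window were solved from the scores of 8 wild-type and 14 mutant islands of 1 window. With 1 library per genotype no test was possible. Regions were named by rule: the 5 most covered bins, the 5 bins of largest difference in each direction, and per list the 5 longest, 5 highest-scoring and 5 longest unmatched islands, with runs of high or empty bins. The chromosome, the rule and the limits were chosen with earlier results of these data known. The planned cover of gene bodies and the gene and marker lists were not run, since the gene table is not of mm9.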

Additional observations from a re-analysis of the deposited data

How the results depend on the processing

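Chromosome 6 kept the highest cover, the most islands per Mb, the highest median score per window and the highest Jaccard index of the 17 autosomes in each alternative run for them; it kept the longest mean island length except in the upper 50% by score of the wild type, where it exceeded 15 of 16 others. Its cover was 1.43 to 1.54 times the median autosome in the wild type and 1.47 to 1.57 times in the mutant. High bins were 21.4% with 500 kb bins, 28.0% with 2 Mb bins and 21.3% in the upper 50%. Covered length in the mutant relative to the wild type, 0.982 as deposited, reversed to 1.01 (1.01478) in the upper 50% by score, 1.00297 with islands within 2 kb joined and 1.00561 at equal covered length, and was 0.941 with islands of at least 2 kb. To equalise covered length, 4428 islands were dropped from the wild-type list alone; the cause of the other changes was not tested. The share of wild-type islands with a counterpart was 79.1% (at least 2 kb), 84.2% (joined), 87.6% (equal covered length), 76.8% (overlap of 50% of the island) and 57.1% (50% reciprocal overlap). For mutant islands it was 81.5% (at least 2 kb), 74.9% (equal covered length), 73.4% (overlap of 50%) and 49.0% (50% reciprocal overlap). These shares were computed for chromosome 6 alone. There was no replicate to leave out. No paired analysis was possible because each genotype has 1 library. What depth limits was not tested. Cover of gene bodies was not run.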
